A study of Homo sapiens with 8 samples.

Results

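AMP-activated protein kinase (AMPK) is the energy sensor of animal cells, and the 8 genes described here encode its subunits and the main kinases that switch it on. They are PRKAA1 and PRKAA2 (catalytic alpha subunits), PRKAB1 and PRKAB2 (beta subunits), PRKAG1 and PRKAG2 (gamma subunits), STK11 (the kinase LKB1) and CAMKK2 (the kinase CaMKK2). They were chosen by name, from 62826 genes in the gene tables, and all 8 were among the 19785 genes with enough reads to test. PRKAG3, the third gamma gene, had 1 to 7 reads per library and was not tested.

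Expression was measured by sequencing of mRNA in LUHMES cells, a conditionally immortalised line from human embryonic midbrain whose tetracycline-controlled v-myc transgene is shut off when the cells are turned into neurons. Cells labelled wild type were differentiated for 6 days with dbcAMP, GDNF and tetracycline, which both groups received. The treated group then had antimycin A at 25 µM plus oligomycin at 10 µM for 8 h, and the vehicle group DMSO. Each group has 4 libraries, from differentiations 2 to 5, described as independent batches of this single line with 4 technical replicates each by the series text. The labels do not say whether treated and vehicle cells of a number share a batch, nor how technical replicates entered a library. Each number has 1 deposited library in either group, and p-values measure the spread between these libraries.

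AMPK is a trimer of a catalytic alpha, a scaffolding beta and a gamma subunit that binds AMP, ADP and ATP. When ATP falls, AMP or ADP bound to gamma favours phosphorylation of a threonine in the activation loop of alpha, by LKB1 in most tissues and by CaMKK2 when calcium rises, as in neurons. Active AMPK slows lipid and protein synthesis and promotes glucose use, autophagy and mitochondrial turnover. Antimycin A blocks respiratory complex III and oligomycin the mitochondrial ATP synthase, and the comparison asks how the RNA of these genes stood after both were blocked. RNA sequencing measures neither the phosphorylation nor the activity of the kinase.

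The libraries held 93.7 to 110 M estimated reads. Neuronal markers were present (8 of 8 at a mean of at least 1 CPM, reads scaled to a common library total), and their summed level was 4037 to 4104 CPM in treated and 4968 to 5356 CPM in vehicle libraries. Of the dopaminergic markers 5 of 10 reached 1 CPM, among them TH and SLC6A3, while LMX1A and FOXA2 were under 0.1 CPM in every library. Of the other lists, 5 of 6 progenitor, 3 of 5 oligodendrocyte, 1 of 5 astrocyte and 0 of 5 microglial markers reached 1 CPM, and GFAP, AQP4, S100B and MOG were under 0.1 CPM in every library. Progenitor markers summed to 291 to 320 CPM in treated and 325 to 408 CPM in vehicle libraries, and astrocyte markers, GJA1 alone reaching 1 CPM, to 23.7 to 28.7 and 32.7 to 35.3 CPM. Their part in the results below was not tested, and in bulk RNA fewer cells of a type and less RNA per cell cannot be told apart. Vehicle replicate 2 stood apart, with 11.5% of its reads on the 13 mitochondrially encoded mRNAs against 3.27 to 4.33% in the other vehicle and 2.14 to 2.90% in the treated libraries. Without it the log2 changes described below were -0.52 for PRKAA1, -0.12 for PRKAA2, 0.18 for PRKAB1, 0.63 for PRKAB2, -0.19 for PRKAG1, -0.25 for PRKAG2, 0.38 for STK11 and -0.56 for CAMKK2, and the same 7 genes were called.

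The subunits did not move together. PRKAB2, PRKAB1 and STK11 rose in treated cells, PRKAA1, CAMKK2, PRKAG2 and PRKAG1 fell, and PRKAA2 did not pass the test. So 7 of 8 genes were called (edgeR quasi-likelihood test, Benjamini-Hochberg adjusted p under 0.05 over all genes tested), where 57.9% of all genes were. The 3 higher genes stand against 27.7% of all genes called higher, and the 4 lower ones against 30.2% called lower. The same 7 genes had treated and vehicle CPM values that did not overlap, which held for 53.4% of all genes. The median log2 fold change of the 8 genes was -0.20, against -0.02 over all genes. The changes were moderate for these cells, since 33.9% of all genes changed by more than PRKAB2, which had the largest change of the 8 in this fit. The order of the 8 depended on the setting: with library totals PRKAA1 was at -0.68 and PRKAB2 at 0.52, and without treated replicate 5 STK11 was at 0.65 and PRKAB2 at 0.56.

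**Figure D1:**
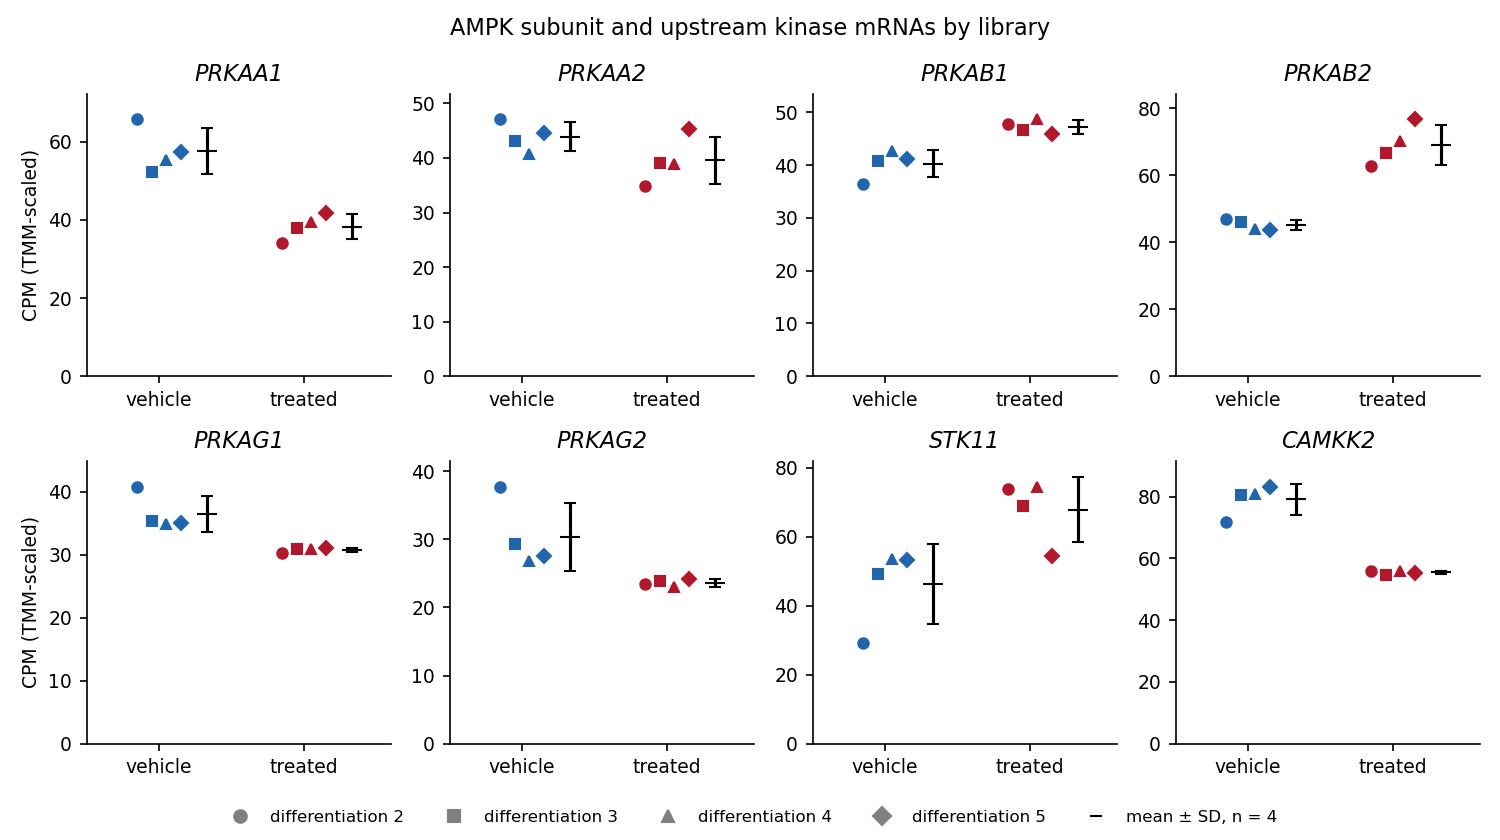
CPM of each gene (vertical axis, from 0) in the 4 vehicle (blue) and 4 treated (red) libraries, with marker shape for the differentiation number and black bars for mean ± SD. PRKAA1, PRKAG1, PRKAG2 and CAMKK2 lie lower and PRKAB1, PRKAB2 and STK11 higher in every treated library, and the groups overlap for PRKAA2.

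Among the alpha subunits, PRKAA1 fell and PRKAA2 was not shown to change. PRKAA1 (ENSG00000132356.12, chromosome 5, 40759379 to 40798374, minus strand; these and all coordinates are from GENCODE 29 on hg38) encodes alpha1, the more widely expressed catalytic subunit. It stood at 34.1, 37.8, 39.4 and 41.9 CPM in treated and at 65.8, 52.1, 55.2 and 57.3 CPM in vehicle libraries, in the order of differentiations 2 to 5. Every treated library lay below every vehicle library. The means were 38.3 ± 3.25 and 57.6 ± 5.84 CPM (SD, n = 4 each), a log2 fold change of -0.59 ± 0.0897 (SE, adjusted p = 2.9e-04), so that PRKAA1 fell by 33.5%. Correction for the effective length assigned in each library brought the change to -0.31 (adjusted p = 0.0024), and counting coding transcripts alone gave -0.70. The adjusted p was 0.0035 or lower in all 15 alternatives run.

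PRKAA2 (ENSG00000162409.12, chromosome 1, 56645322 to 56715335, plus strand) encodes alpha2, the catalytic subunit prominent in muscle, heart and neurons. Its treated libraries held 34.9, 39.1, 39.0 and 45.2 CPM and its vehicle libraries 47.1, 43.1, 40.8 and 44.7 CPM. The highest treated library, from differentiation 5, lay within the vehicle range, and the other 3 lay below it. The log2 fold change was -0.15 ± 0.0859 (adjusted p = 0.16). It passed the threshold without treated replicate 5 (-0.22, adjusted p = 0.027) and with scaling by library totals alone (-0.25, adjusted p = 0.030), and ranged from 0.027 to 0.39 in adjusted p over the alternatives.

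Both beta subunit genes rose in CPM, PRKAB2 more than PRKAB1 by the difference in their share given below. The beta subunit ties alpha to gamma and carries a carbohydrate-binding module that can hold glycogen. PRKAB2 (ENSG00000131791.8, chromosome 1, 147155106 to 147172550, minus strand) measured 62.7, 66.6, 70.05 and 76.7 CPM in treated cells and 46.8, 46.0, 43.9 and 43.7 CPM in vehicle cells. The gap between the groups was wider than the spread within either. PRKAB2 went from 45.1 ± 1.55 to 69.0 ± 5.94 CPM, a rise of 53.0% (log2 fold change 0.61 ± 0.0722, adjusted p = 5.1e-05).

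PRKAB1 (ENSG00000111725.11, chromosome 12, 119667753 to 119681630, plus strand) had 47.8, 46.6, 48.7 and 45.8 CPM in treated and 36.5, 40.8, 42.6 and 41.2 CPM in vehicle libraries. The groups did not overlap, though the lowest treated and the highest vehicle library were close. The rise was 17.3% (47.2 ± 1.27 against 40.3 ± 2.64 CPM, log2 fold change 0.23 ± 0.0656, adjusted p = 0.012). PRKAB1 lost its call with scaling by library totals (0.13, adjusted p = 0.20). In TPM (a transcript level per length, scaled to a common total), the groups of PRKAB1 overlapped. The TPM means were 42.9 ± 0.845 in treated and 38.6 ± 6.21 in vehicle libraries. Without vehicle replicate 2 the vehicle mean was 41.7 ± 0.735 TPM, so little of a rise was left in TPM. In CPM that mean was 41.5 ± 0.936, and PRKAB1 kept its call (edgeR log2 change 0.18, adjusted p = 0.0090). TPM were taken as deposited, without the TMM scaling between libraries that CPM have.

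Both gamma subunit genes fell. Gamma carries the nucleotide-binding CBS repeats through which AMPK reads the ratio of AMP and ADP to ATP. PRKAG1 (ENSG00000181929.13, chromosome 12, 49002274 to 49018825, minus strand), the common gamma subunit, gave 30.3, 30.8, 31.0 and 31.0 CPM in treated cells and 40.8, 35.3, 34.8 and 34.98 CPM in vehicle cells. The treated libraries were nearly identical, and vehicle replicate 2 was the highest. The mean went from 36.5 ± 2.88 to 30.8 ± 0.327 CPM, so that PRKAG1 fell by 15.7% (log2 fold change -0.25 ± 0.0688, adjusted p = 0.011).

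PRKAG2 (ENSG00000106617.15, chromosome 7, 151556111 to 151877125, minus strand) encodes gamma2, a longer subunit whose mutations cause a glycogen-storage cardiomyopathy. It stood at 23.4, 23.9, 22.9 and 24.2 CPM in treated and at 37.7, 29.3, 26.8 and 27.6 CPM in vehicle libraries. All treated values lay below the vehicle values, of which vehicle replicate 2 was again the highest. PRKAG2 fell by 22.3% (23.6 ± 0.544 against 30.4 ± 5.002 CPM, log2 fold change -0.36 ± 0.104, adjusted p = 0.013). Without vehicle replicate 2 the log2 change was -0.25 (adjusted p = 0.0030; 0.0014 to 0.040 over the alternatives run).

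Of the upstream kinases, STK11 rose and CAMKK2 fell. CAMKK2 (ENSG00000110931.19, chromosome 12, 121237691 to 121298308, minus strand), the calcium-dependent kinase, held 55.9, 54.7, 56.0 and 55.3 CPM in treated libraries and 71.8, 80.5, 80.9 and 83.2 CPM in vehicle libraries. Treated libraries spanned little more than 1 CPM, well below the lowest vehicle library. CAMKK2 fell by 29.9% (55.5 ± 0.589 against 79.1 ± 5.04 CPM, log2 fold change -0.51 ± 0.0620, adjusted p = 6.2e-05), and the change lay between -0.61 and -0.49 over the alternatives.

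STK11 (ENSG00000118046.17, chromosome 19, 1177558 to 1228435, plus strand), the tumour suppressor kinase LKB1, showed the widest spread of the 8. Treated libraries held 73.8, 68.8, 74.5 and 54.3 CPM and vehicle libraries 29.2, 49.1, 53.5 and 53.2 CPM. Treated replicate 5 lay just above the highest vehicle library, and vehicle replicate 2 lay far below the other vehicle libraries, at a log2 difference of -0.83. STK11 went from 46.3 ± 11.5 to 67.8 ± 9.39 CPM (log2 fold change 0.55 ± 0.1802, adjusted p = 0.023). Without vehicle replicate 2 the log2 change was 0.38 (adjusted p = 0.0093), against a vehicle mean of 51.9 ± 2.44 CPM. STK11 was no longer called without treated replicate 2 (0.51, adjusted p = 0.057), without treated replicate 4 (0.51, adjusted p = 0.060) and with library totals alone (0.44, adjusted p = 0.080), and the adjusted p ran from 0.0023 to 0.080 over the alternatives.

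STK11 shares 149 bases with CBARP on the opposite strand, and use of strand in the counting was not given in the sources used here. CBARP stood at 90.1, 87.5, 84.6 and 48.1 CPM in treated and at 32.3, 56.4, 55.5 and 53.1 CPM in vehicle libraries (log2 fold change 0.65 ± 0.219, adjusted p = 0.026). Both genes were lowest in treated replicate 5 among the treated and in vehicle replicate 2 among the vehicle libraries, and the part of the overlap in the STK11 values was not tested. The antisense genes that overlap PRKAG1 and PRKAG2 were low, DDN-AS1 at 0.430 against 0.385 CPM and PRKAG2-AS1 at 2.30 against 2.34 CPM, and neither was called.

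**Figure D2:**
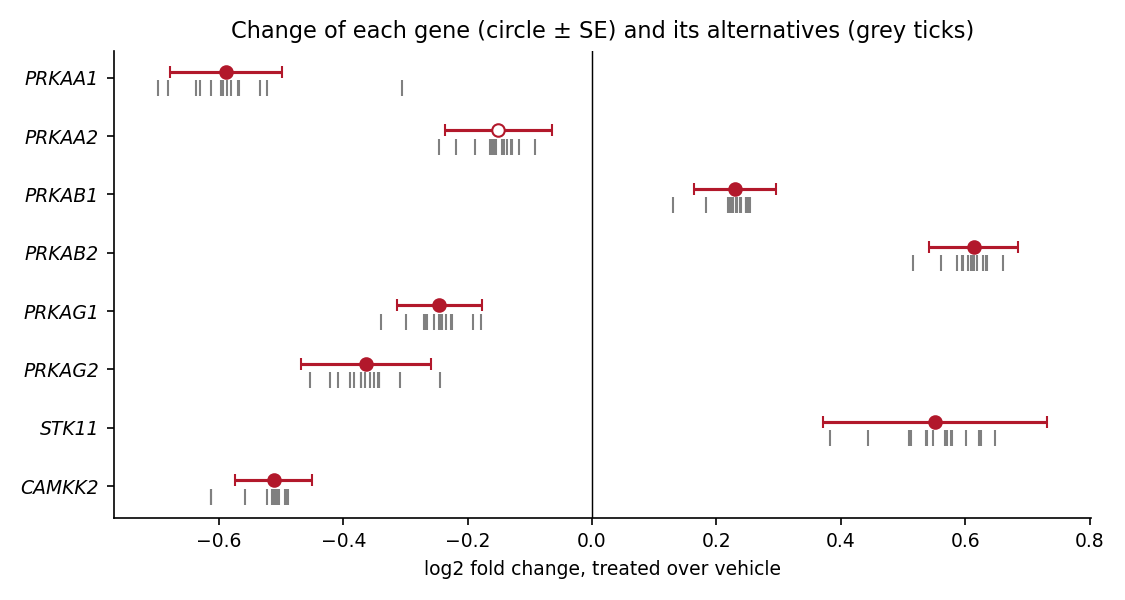
Log2 fold change of treated over vehicle (horizontal axis) for each gene, as a circle with its SE (filled where the adjusted p was under 0.05), and its values under the 15 alternatives as grey ticks below. No tick crosses 0; the lone tick of PRKAA1 at -0.31 is the correction for effective length, and the tick of STK11 at 0.38 leaves out vehicle replicate 2.

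The authors' deposited table of coding genes, made with a test that the sources used here do not name, gives log2 changes within 0.1 of these for all 8 genes. In the authors' deposited table PRKAB2 is at 0.59, STK11 at 0.55, PRKAB1 at 0.24, PRKAA2 at -0.19, PRKAG1 at -0.23, PRKAG2 at -0.44, CAMKK2 at -0.52 and PRKAA1 at -0.61. The false discovery rate in the authors' deposited table is under 0.05 for the same 7 genes and 0.15 for PRKAA2. The signals per library in the authors' deposited table, of unnamed unit, do not separate the groups for PRKAB1, where vehicle replicate 2 is at 31.75, the other vehicle libraries at 22.84 to 24.72 and the treated libraries at 23.81 to 28.27. In CPM that library was the lowest of PRKAB1. For STK11 the signals in the authors' deposited table also overlap, with treated replicate 5 at 28.77 and vehicle replicate 5 at 29.95.

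Levels of different genes can be compared only per length, so the order of the 8 is given in TPM. In vehicle cells PRKAG1 stood at 47.6 ± 2.60, STK11 at 46.1 ± 11.4, PRKAA1 at 40.3 ± 3.93, PRKAB1 at 38.6 ± 6.21, CAMKK2 at 35.5 ± 7.36, PRKAG2 at 27.6 ± 1.52, PRKAB2 at 18.1 ± 2.67 and PRKAA2 at 9.71 ± 1.18 TPM. The ranges of neighbours overlapped from PRKAG1 down to PRKAG2, while PRKAG2, PRKAB2 and PRKAA2 were separated from each other. In treated cells the order was STK11 at 63.2 ± 3.43, PRKAB1 at 42.9 ± 0.845, PRKAG1 at 40.4 ± 1.11, PRKAA1 at 31.3 ± 2.28, PRKAB2 at 25.9 ± 2.16, CAMKK2 at 22.0 ± 1.12, PRKAG2 at 21.6 ± 0.510 and PRKAA2 at 8.30 ± 0.824 TPM. Here only PRKAA1 with PRKAB2 and CAMKK2 with PRKAG2 overlapped as neighbours. PRKAA2 was the lowest of the 8 in both groups.

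Each subunit class has a pair of expressed paralogs, and their relative levels were compared as a share of the class's summed TPM (exact two-sided permutation test over 70 assignments, smallest possible p 0.0286, Benjamini-Hochberg over 6 quantities). The share of PRKAB2 among beta subunits was 34.8, 37.3, 38.3 and 40.02% in treated and 32.7, 32.7, 30.8 and 31.6% in vehicle libraries. Every treated library lay above the vehicle range, with means of 37.6 ± 2.16 and 32.0 ± 0.945% (difference 5.65 percentage points, exact permutation p = 0.0286, adjusted p = 0.043). PRKAA2 held 20.8, 20.6, 20.7 and 21.8% of alpha in treated and 18.9, 20.3, 18.4 and 20.0% in vehicle libraries. This was a small difference (1.56 points, exact permutation p = 0.0286, adjusted p = 0.043), with a narrow gap between the groups. On coding transcripts alone the PRKAA2 share was 38.6 ± 1.01 against 30.2 ± 0.871%, a difference of 8.36 points (adjusted exact permutation p = 0.034), so its size depends on which transcripts are counted. In CPM, which are not per length, it was 50.8 ± 0.913 against 43.3 ± 1.54%, a difference of 7.45 points (adjusted exact permutation p = 0.034). The share of PRKAG2 among gamma subunits was 34.8 ± 0.566 against 36.8 ± 1.58% (-1.99 points, exact permutation p = 0.057), and the groups overlapped.

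**Figure D3:**
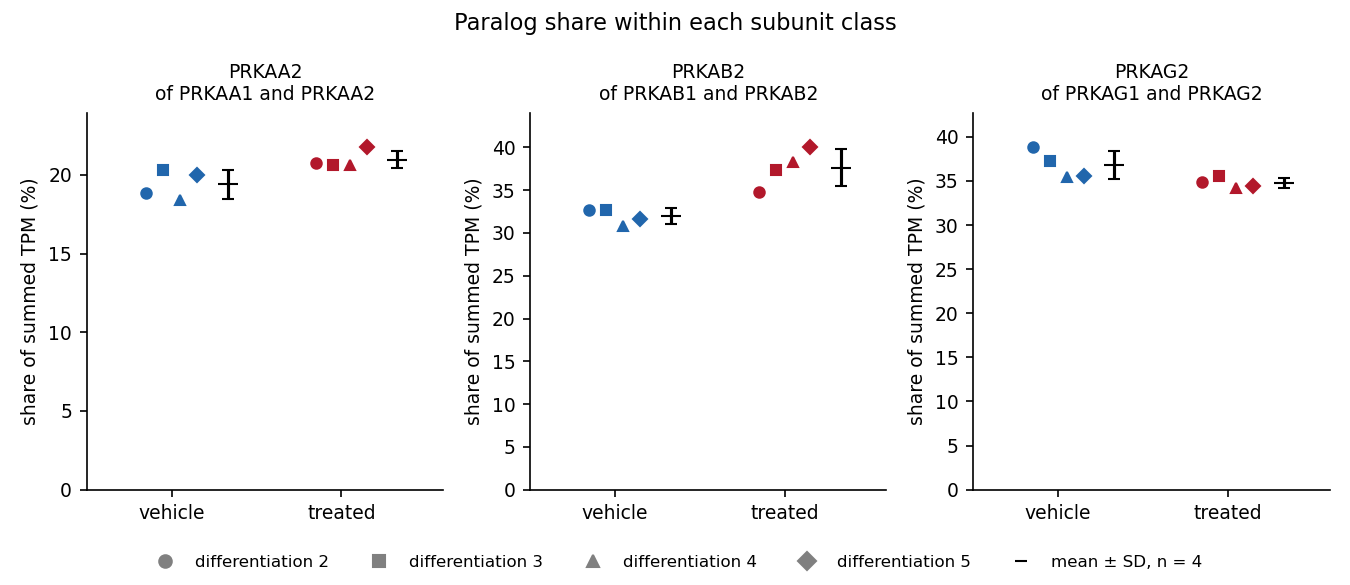
Share of the summed TPM of a subunit class held by PRKAA2, PRKAB2 and PRKAG2 (vertical axis in percent, from 0) in the vehicle (blue) and treated (red) libraries, with mean ± SD in black. PRKAB2 makes up 34.8 to 40.02% of beta subunit TPM in treated and 30.8 to 32.7% in vehicle libraries, and the shares of the other classes differ by under 2 percentage points.

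The classes as a whole went in different directions. The TPM were summed as deposited, without TMM scaling between libraries, and the part of this in the size of the differences was not tested. In TMM-scaled CPM, which are not per length, the differences were -23.7 (alpha), 30.9 (beta) and -12.5 (gamma), each with an adjusted exact permutation p of 0.034. Summed beta TPM was 67.2, 67.0, 70.3 and 70.8 in treated and 43.6, 61.7, 59.3 and 62.1 in vehicle libraries (difference 12.2 TPM, exact permutation p = 0.0286, adjusted p = 0.043), and the difference was 7.79 TPM without vehicle replicate 2. Most of that 7.79 TPM lay in PRKAB2 (25.9 against 19.4 TPM) and little in PRKAB1 (42.9 against 41.7 TPM). Summed gamma TPM was 60.0, 62.2, 62.4 and 63.4 in treated and 72.1, 79.1, 72.7 and 76.8 in vehicle libraries (difference -13.2 TPM, exact permutation p = 0.0286, adjusted p = 0.043). The groups did not overlap in either sum. Summed alpha TPM was 39.6 ± 3.09 against 49.998 ± 5.01 (difference -10.4 TPM, exact permutation p = 0.057), with overlap through vehicle replicate 2. The rank of vehicle replicate 2 depended on the unit, for a reason that was not tested. It was the highest vehicle library of PRKAA1 and PRKAB2 in CPM (65.8 and 46.8) and the lowest in TPM (34.7 and 14.3). The alpha difference passed at -12.8 TPM without that library (adjusted exact permutation p = 0.043) and on coding transcripts alone (-10.6 TPM, adjusted p = 0.034). With only 7 libraries, leaving out any treated library, or vehicle replicate 3 or 5, brought the adjusted p of all 4 called shares and sums above the threshold (0.057 to 0.10), with differences of 1.29 to 1.86 points for the PRKAA2 share, 4.85 to 6.58 points for the PRKAB2 share, 11.5 to 13.98 TPM for beta and -13.7 to -11.9 TPM for gamma. The PRKAB2 share also lost its call without vehicle replicate 2 (5.91 points) or 4 (5.26 points).

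The transcript tables allow a test of whether the transcripts of a gene changed unequally. PRKAA2 has a single transcript there, and of the other 7 genes 3 were called (PRKAA1, STK11 and PRKAG2), against 26.9% of the 11746 genes tested (edgeR diffSpliceDGE, Simes p adjusted over all genes). The test does not include the uncertainty of dividing reads among transcripts. PRKAA1 had the smallest adjusted p of the 7 (1.8e-08), and its call held in all 10 alternatives.

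The PRKAA1 result turned on PRKAA1-207, which lacks the exon that encodes the activation-loop threonine. The annotation types it as a retained intron, but its 5 exons all lie inside exons of the full coding transcript PRKAA1-204, and it joins exon 4 to exon 6 of the 9. The skipped exon 5 (chr5:40769416-40769503, minus strand, hg38, sequences from GENCODE 29) has 88 bases and touches codons 170 to 199 of 559. It is shown first, with the codon of threonine 183, the residue that LKB1 and CaMKK2 phosphorylate, in capitals. The line below it is the junction that PRKAA1-207 has in its place, with the bases after the junction in capitals.
PRKAA1 exon 5: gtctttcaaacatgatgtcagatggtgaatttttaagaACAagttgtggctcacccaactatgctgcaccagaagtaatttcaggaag
PRKAA1-207 junction: agatagctgattttgATTGTATGCAGGCCC
Division of 88 by 3 leaves 1, so the skip shifts the reading frame, and PRKAA1-207 reads 176 codons before an in-frame stop.

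PRKAA1-207 stood at 3.07, 3.28, 4.33 and 3.77 TPM in treated and at 1.05, 0.951, 1.47 and 1.16 TPM in vehicle libraries. It was higher in every treated library, while the gene as a whole fell. Its log2 change relative to the gene's other transcripts was 1.56 (edgeR, adjusted p = 1.5e-08 over all transcripts, of which 8.10% were called). These values rest on 86.5 to 133 estimated reads per treated and 27.6 to 40.8 per vehicle library. Since its exons lie inside those of PRKAA1-204, only reads across its junction tell it from PRKAA1-204 by sequence. Such reads were not counted here, so its level rests on how the quantifier divided shared reads. PRKAA1-204 stood at 11.2, 12.3, 13.0 and 13.7 TPM in treated and at 18.95, 20.7, 21.8 and 23.3 TPM in vehicle libraries, again with no overlap. Of the summed TPM of PRKAA1-207 and the coding transcripts with exon 5, PRKAA1-204 and PRKAA1-202, the skipped form made up 21.6 ± 1.88% in treated and 4.96 ± 0.868% in vehicle cells, given as a description with no test. This share is per length, for 692 bases of PRKAA1-207 against 5088 of PRKAA1-204, and is not a measured rate of exon skipping. PRKAA1-204 was assigned 2706 to 3421 reads per treated and 4929 to 5828 per vehicle library.

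PRKAA1-205 stood at 9.59 to 11.6 TPM in treated and 9.02 to 11.8 TPM in vehicle libraries, which overlapped. Its 919 bases lie wholly within the 5088 bases of PRKAA1-204, so its reads cannot be told from those of PRKAA1-204 by sequence. The mean effective length assigned to the gene was 2189 ± 85.9 bases in treated and 2647 ± 142 bases in vehicle libraries, and these lengths enter the correction that gave a log2 change of -0.31 for the gene. PRKAA1-208, the remaining transcript with over 10% of the gene's TPM, stood at 3.27 ± 0.277 against 4.66 ± 1.12 TPM, and the groups overlapped.

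For STK11 (adjusted p = 0.0025, and 0.0011 to 0.033 over the alternatives), the transcript with the clearest change was STK11-209, singled out after its values were seen. It is annotated as a target of nonsense-mediated decay, the pathway that removes mRNAs with an early stop. Its second exon, 131 bases on the plus strand at chr19:1216268-1216398, is absent from the main coding transcript STK11-201. The first 30 bases of that exon are shown with its stop codon, which follows 13 bases into the exon, in capitals.
STK11-209 exon 2: ctcctggccactcTGAatccacttcctggc
STK11-209 thus reads 101 codons, against 433 in STK11-201.

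STK11-209 stood at 0.559, 0.619, 0.616 and 0.768 TPM in treated and at 2.23, 1.38, 1.14 and 1.29 TPM in vehicle libraries. All treated libraries were lower, and vehicle replicate 2 was the highest. Its log2 change relative to the other transcripts was -1.29 (adjusted p = 0.0018), on only 13.9 to 17.0 estimated reads per treated and 27.1 to 59.3 per vehicle library. STK11-201 stood at 41.4, 38.7, 42.0 and 33.6 TPM in treated and at 13.8, 30.7, 32.4 and 32.9 TPM in vehicle libraries. The groups did not overlap, but treated replicate 5 and vehicle replicate 5 were close, and the vehicle mean of 27.4 ± 9.14 TPM was 32.0 ± 1.18 TPM without vehicle replicate 2. STK11-209 made up 1.65 ± 0.406% of the pair in treated and 6.34 ± 5.05% in vehicle cells, where vehicle replicate 2 reached 13.9% and the other 3 lay between 3.40 and 4.31%. STK11-206, typed as a retained intron and with over 10% of the gene's TPM, stood at 12.1 ± 1.43 against 7.92 ± 0.804 TPM, with no overlap.

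**Figure D4:**
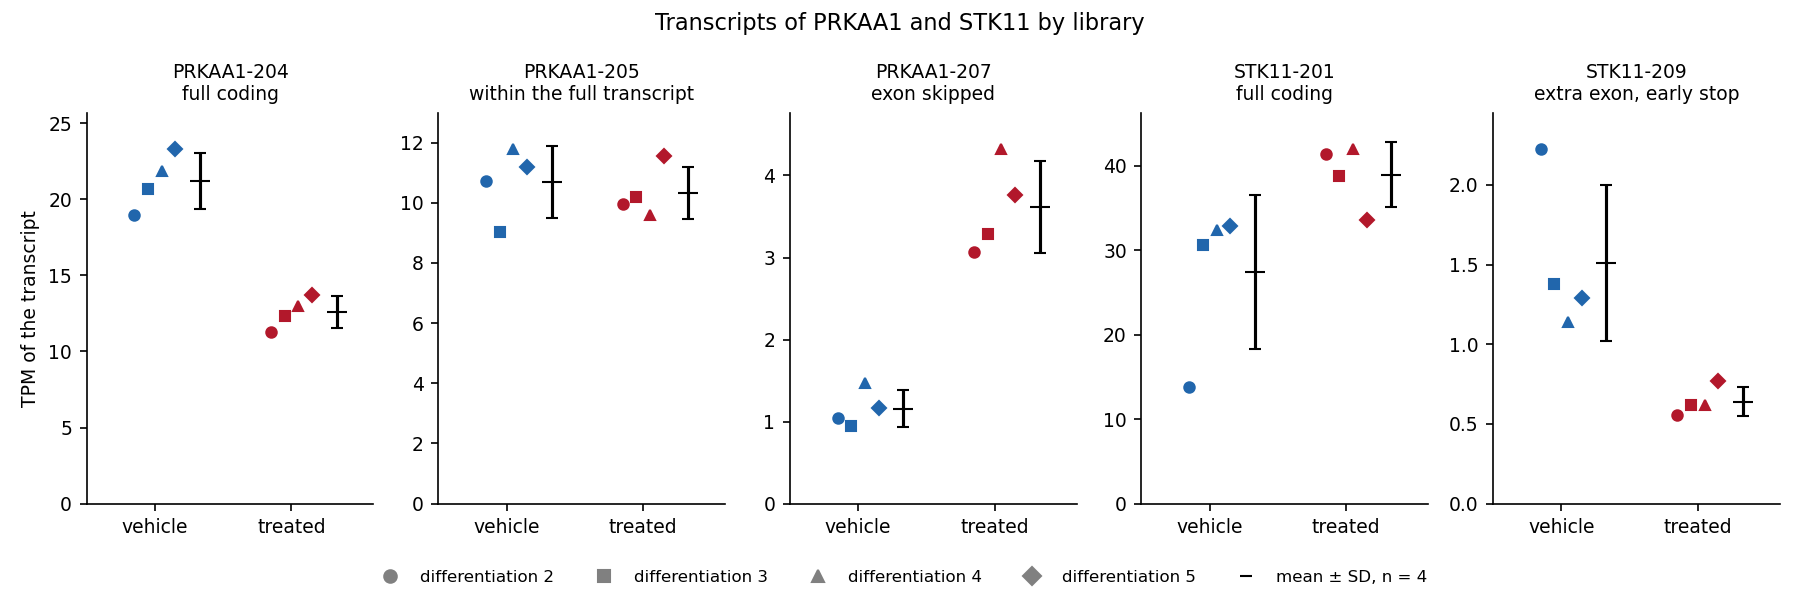
TPM (vertical axes, each from 0 and on its own scale) of 3 PRKAA1 and 2 STK11 transcripts in vehicle (blue) and treated (red) libraries, with mean ± SD in black. PRKAA1-207, which skips the exon of the activation-loop threonine, is higher and PRKAA1-204 lower in every treated library, and STK11-209, with an early stop, is lower.

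The PRKAG2 call (adjusted p = 0.034) was lost in several alternatives: without treated replicate 2 (0.10), 3 (0.18) or 4 (0.092), without vehicle replicate 2 (0.090), 4 (0.088) or 5 (0.13), and with a lower read minimum (0.10). Its main transcript PRKAG2-203 stood at 12.4 ± 1.28 against 16.8 ± 0.711 TPM, and PRKAG2-201 at 1.88 ± 0.080 against 2.90 ± 1.04 TPM, with overlap. GENCODE 29 transcripts held 81.5% of the reads of PRKAG2, 93.9% of those of STK11 and at least 99.6% of those of the other genes. CAMKK2 was not called (adjusted p = 0.067), but was without vehicle replicate 5 (0.0043), and ranged from 0.0043 to 0.23. Its transcript CAMKK2-208 was listed at 0 in 3 treated libraries and in vehicle replicate 2, at 2.78 TPM in treated replicate 2 and at 4.90 to 5.55 TPM in the other vehicle libraries. CAMKK2-205 stood at 5.04 ± 1.41 in treated against 10.4 ± 1.20 TPM in vehicle libraries, with no overlap. The groups overlapped for CAMKK2-207 (10.9 ± 0.461 against 14.4 ± 3.31 TPM) and CAMKK2-202 (3.38 ± 1.31 against 3.23 ± 0.626 TPM). PRKAG1 had an adjusted p of 0.12 (0.024 without vehicle replicate 2, and up to 0.34), PRKAB2 0.32 and PRKAB1 0.48. In treated against vehicle libraries PRKAG1-206 stood at 28.9 ± 0.750 against 38.3 ± 3.84 TPM and PRKAB2-201 at 23.0 ± 2.18 against 15.7 ± 1.96 TPM, without overlap. The groups overlapped for PRKAB2-202 (2.49 ± 0.324 against 1.83 ± 0.618 TPM) and PRKAB1-201 (35.1 ± 0.611 against 30.9 ± 5.85 TPM).

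Around these 8 genes, 71 others of the pathway were read in 6 lists, and all 71 were tested. Each count below stands against the 57.9% of all genes that were called, 27.7% higher and 30.2% lower, and the medians against -0.02. Of the 7 partners of LKB1 and other upstream kinases, 2 rose, 3 fell and 2 did not pass, with a median log2 change of -0.03. CAMKK1, the paralog of CAMKK2, rose by 1.41 ± 0.1501 while CAMKK2 fell. LKB1 works in a trimer with a STRAD pseudokinase and an MO25 scaffold. The pseudokinase genes STRADA (-0.30) and STRADB (-0.43) fell, while STK11 itself rose. Of the MO25 genes, CAB39L rose (0.31, 22.5 against 18.1 CPM), and CAB39 did not pass (-0.03, 111 against 114 CPM). TAB1, which partners the kinase TAK1, fell (-0.32). Of the 6 genes of the lysosomal platform that brings LKB1 to AMPK, 1 was called, against 57.9% of all genes: the scaffold gene AXIN1 rose (0.37, not with library totals alone, 0.27 and adjusted p = 0.061), none fell, and the 5 LAMTOR genes did not pass; without vehicle replicate 2, 3 genes of this list were called lower.

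LKB1 also activates a family of kinases related to AMPK. Of 12 such genes 8 rose, 1 fell and 3 did not pass (27.7% of all genes were higher and 30.2% lower), and the median was 0.36. SIK3 (0.73) and MARK3 (0.52) rose, as did SIK2 (0.43), whose change was 0.14 and not called after the length correction (adjusted p = 0.54). SIK1 fell (-0.37), which was lost after that correction (adjusted p = 0.15) and on coding transcripts alone (adjusted p = 0.071), and it shares reads with the near-identical SIK1B. The 8 rises were 4 with library totals alone and 5 without treated replicate 2, 3 or 4.

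AMPK substrates are regulated by phosphorylation, and their RNA levels went both ways. Of 27 substrate genes 14 rose, 7 fell and 6 did not pass (median 0.25), where 27.7% of all genes were higher and 30.2% lower. The transcription factor FOXO3 (0.79), the clock repressor CRY1 (0.74) and the deacetylase HDAC4 (0.89) rose. TBC1D4 (-1.06 ± 0.0667) and TBC1D1 (-0.52), which restrain glucose transporter traffic, and the muscle-type glycogen synthase GYS1 (-0.78) fell.

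Among 8 negative regulators of AMPK 3 rose, 1 fell and 4 did not pass (median 0.11), near the 57.9% of all genes called. FBXO48 (1.02) and UBE2O (0.35), which target AMPK alpha for degradation, rose, as did the phosphatase subunit PPP2CA (0.19), while the phosphatase PPM1F fell (-0.84). With library totals alone UBE2O (adjusted p = 0.070) and PPP2CA (adjusted p = 0.29) were not called. The enzymes that interconvert adenylates and phosphocreatine gave 3 rises, 3 falls and 5 that did not pass among 11 (median 0.10), near the shares of all genes called higher (27.7%) and lower (30.2%). AK6 (1.37, in a locus shared with TAF9), AK5 (0.60) and AK3 (0.20) rose, and the mitochondrial adenylate kinase AK4 (-0.74) and the mitochondrial creatine kinase genes CKMT1A (-0.50) and CKMT1B (-0.42), near-identical copies, fell. The 3 rises were 1 without treated replicate 4 or vehicle replicate 5 and 5 without treated replicate 5. AK3 and AK5 lost their call in several alternatives, among them without treated replicate 4 (adjusted p = 0.056 and 0.054).

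**Figure D5:**
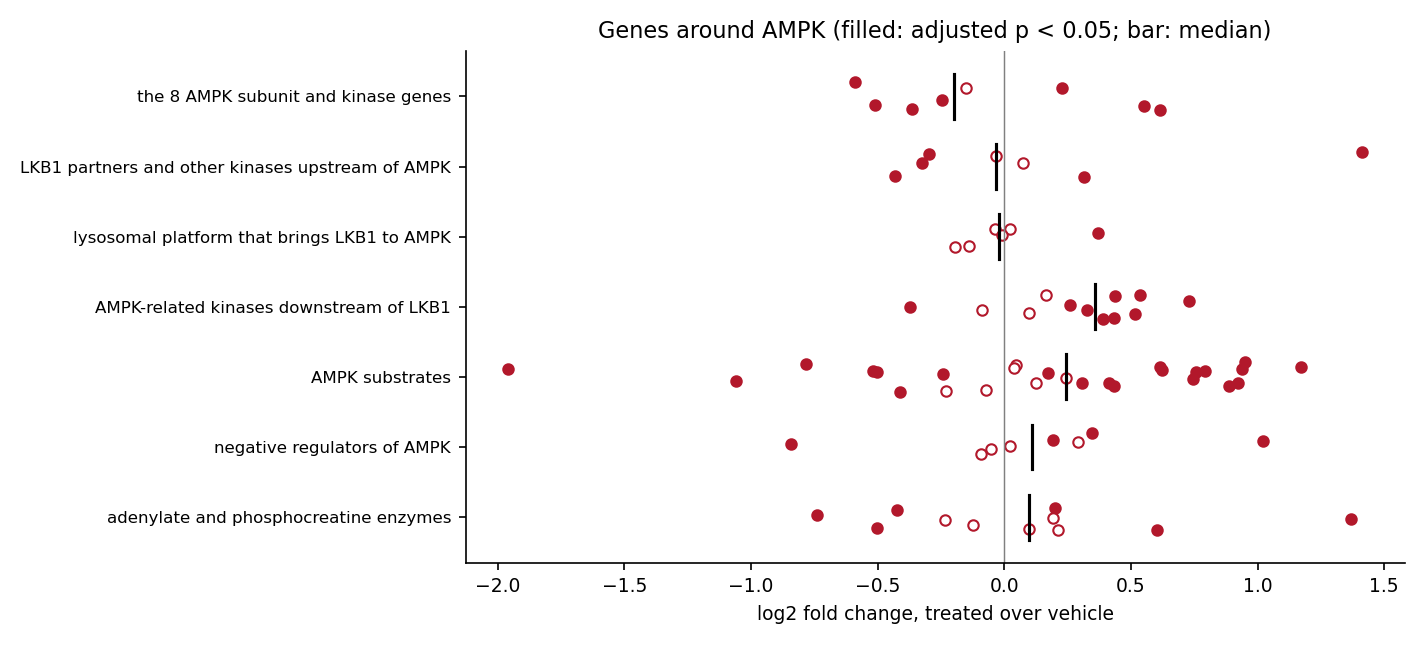
Log2 fold change (horizontal axis) of each gene of the 8 and of the 6 lists around AMPK; filled points passed an adjusted p of 0.05, open points did not, and the black bar is the median of the list. The 8 genes have a median of -0.20, and the AMPK-related kinases the highest median of the lists at 0.36.

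The genes most like each of the 7 called genes in log2 CPM over the 8 libraries were sought among 11400 genes, as a description. The group difference is part of the likeness, and the points share their libraries. PRKAA1 was most like GAB1 (r = 0.998, log2 change -0.70) and CDK12. PRKAB2 was most like ANKH and WDR17, PRKAB1 like RPL10A and SNHG29, PRKAG1 like TRIM24 and MAP7D3, and PRKAG2 like ZNF589 and BOLA2B. STK11 was most like CDIP1 and ATG4D, which also rose (0.38 and 0.74), and CAMKK2 like DHTKD1 and TRIB2, which also fell (-0.65 and -0.67). With library totals neither CDIP1 (adjusted p = 0.13) nor ATG4D (0.0504) was called, and CDIP1 also lost its call without treated replicate 2, 3 or 4 (0.056 to 0.064). Pearson's r was at least 0.993 in all these pairs.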

How the data were processed

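RNA was sequenced from 4 treated and 4 vehicle libraries. The authors deposited a gene and a transcript table per library that hold TPM and estimated counts beside effective lengths, per the file headers. The quantifier was not given in the sources used here. HISAT2, SAMtools, StringTie and hg38 are named, without roles, per the submitters' processing notes. For coding genes the authors also deposited a signal of unnamed unit per library with a log2 fold change, its p-value and its false discovery rate. A table and an annotation of lncRNAs were not used here.

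Symbols came from a supplied gene name table (62684 of 62826 genes matched). Gene types, coordinates and transcript sequences came from GENCODE 29, which covers 202856 of 253512 transcripts, and transcript versions can differ from those in the files. Estimated counts were rounded, filtered with filterByExpr, scaled by TMM and tested in edgeR 4.0.16 (R 4.3.3) by its quasi-likelihood F-test without covariates. The SE is the size of the log2 change over the square root of F. CPM use TMM-scaled library sizes. Transcripts needed 10 reads in 4 libraries for diffSpliceDGE. Libraries of a group differed by more than sampling noise, with a chi-square of 12.8 to 394 per degree of freedom. Procedures were tested on simulated data.

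The 8 genes, the lists and the tests were chosen with earlier results of these data known. Named are the 8 genes and PRKAG3, from each list up to 3 higher and 3 lower genes with the smallest adjusted p, the 2 genes of most like pattern at a mean of at least 5 CPM, and transcripts with at least 10% of a gene's TPM. Alternatives were library totals, DESeq2 size factors, no filter, DESeq2 1.42.0, an effective length offset, a replicate block, each library left out and, chosen after seeing the data, protein-coding transcripts only.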

Additional observations from a re-analysis of the deposited data

Results flagged for a closer look

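In 9 of the 62 groups of 4 libraries checked, the highest or lowest library lay far from the other 3 for the range of its group. Chance alone gives some such groups, and 5 of the 9 are in vehicle replicate 2. In that library PRKAG1 stood at 40.8 CPM (34.8 to 35.3 in the other vehicle libraries), and summed beta subunit TPM at 43.6 (59.3 to 62.1). The low beta sum was seen in TPM. In CPM the beta sums of the vehicle libraries lay close together, at 85.4 ± 1.61 (SD, n = 4). Also in vehicle replicate 2, PRKAB1-201 stood at 22.2 TPM (33.1 to 34.4), STK11-201 at 13.8 TPM (30.7 to 32.9) and CAMKK2-208 at 0 TPM (4.90 to 5.55). Among treated libraries, replicate 2 had CAMKK2-208 at 2.78 TPM, where the other 3 listed it at 0. Treated replicate 5 had a PRKAA2 share of alpha of 21.8% (20.6 to 20.8), PRKAG2-203 at 14.3 TPM (11.7 to 11.8) and CAMKK2-207 at 10.2 TPM (11.0 to 11.2).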

How the results depend on the processing

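The log2 changes of PRKAA1, PRKAB2, PRKAG1, PRKAG2 and CAMKK2 kept their direction and call in all 15 alternatives, and no change of the 8 genes reversed. With library totals alone, which move the median of all genes by -0.10, PRKAA2 passed (-0.25), PRKAB1 (0.13) and STK11 (0.44) did not, 1 of the 8 was called higher, and all genes split into 4280 higher and 7023 lower in place of 5484 and 5977. With 1 library left out, log2 changes ran from -0.22 to -0.092 for PRKAA2 and from 0.38 to 0.65 for STK11. Differences in shares ran from 1.23 to 1.86 points (PRKAA2), 4.85 to 6.58 (PRKAB2) and -2.43 to -1.31 (PRKAG2, past the threshold only without vehicle replicate 4). Differences in sums ran from -12.8 to -9.08 TPM (alpha), 7.79 to 13.98 (beta) and -14.2 to -11.9 (gamma). In CPM the alpha difference was -23.7 and passed, as did -10.6 TPM on coding transcripts. Transcript use was called in 2058 to 3991 genes with 1 library left out, against 3154, and in 2100 and 2058 without treated replicates 3 and 4.

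The numbers were not taken as pairs in the main fit, because the series text calls the batches independent. Same-numbered libraries did not deviate together (r = -0.08, 0.03, 0.03 and -0.001 for numbers 2 to 5, none highest with its own number). With 4 libraries per group this cannot show whether they share a batch. With the replicate block 5163 genes were higher and 5601 lower, and the same 7 of the 8 genes were called in both fits, while the transcript use of CAMKK2 passed (adjusted p = 0.0050) and AK3 lost its call (adjusted p = 0.063). A sign-flip test within same-numbered pairs as a block has a smallest p of 0.125, so the shares of PRKAA2 (1.56 points) and PRKAB2 (5.65) and the sums of beta (12.2 TPM) and gamma (-13.2 TPM) cannot pass it. Of the 40 genes named beside the 8, 12 lost their call in some alternative and 0 reversed. Where no reason is given, the cause was not tested. Few reads limit PRKAA1-207 and STK11-209.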
